A study of Drosophila melanogaster with 6 samples.

Results

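The *Drosophila* embryo begins life on mRNAs that its mother loaded into the egg, and the handover from these maternal mRNAs to transcription from the embryo's own genome is the maternal-to-zygotic transition. Among 17714 genes listed in the RNA-seq tables, 9 with established roles in this handover were examined, 3 for each of 3 roles. The genome activators were *zld* (Zelda), *Trl* (GAGA factor) and *Clamp* (CLAMP). The regulators of maternal mRNA decay and translation were *smg* (Smaug), *brat* (Brain tumor) and *pum* (Pumilio). The Pan gu (PNG) kinase genes were *png*, *plu* and *gnu*. The rule names the genes by role and uses no measured value, although the genes were chosen with earlier results of these data known. All 9 passed the filter on low counts that left 11568 genes for testing.

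The RNA-seq comprised whole embryos of mixed stages in 6 samples, 3 biological replicates from *Raf926* germline clones and 3 from wild type (WT, Oregon R). *Raf926* is a mutation of *Raf*, the kinase that links receptor tyrosine kinases to ERK. The mothers carried germline clones homozygous for *Raf926* on an FRT19A chromosome, made by FLP recombination against the dominant female sterile mutation *ovoD2*. The study describes the fathers as hemizygous males. Its listed cross of such mothers without a transgene used FM6 males, but the cross behind these samples is not named. Embryos of such mothers lacked normal maternal Raf, while a paternal X chromosome with normal *Raf* could supply the gene to daughters. The sample records state that eggs were laid over 24 h at 25 °C for every sample, whereas the study's methods state a shorter window at a lower temperature, so the age range of the embryos is not settled. Each sample held between 33275401 and 38120428 expected counts in all. The mutated gene *Raf* was at 54.2% of WT in *Raf926* (log2 fold change −0.88, SE 0.15, adjusted p = 0.0016, edgeR), with 2538, 2935 and 2184 normalized counts in WT and 1202, 1399 and 1546 in *Raf926*. The samples were bulk RNA, so fewer embryos or cells of a kind cannot be told apart from less of a transcript in each.

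In the egg, the PNG kinase is switched on at egg activation, when Gnu joins the catalytic subunit Png and its partner Plu. The kinase allows translation of maternal mRNAs, *smg* among them, and Smaug protein recruits the CCR4-NOT deadenylase to many maternal mRNAs and so brings about their destruction. Pumilio and Brat bind further sets of maternal mRNAs through their own sequence motifs. Zelda, GAGA factor and CLAMP bind and open chromatin at early zygotic genes, and their own mRNAs are also supplied by the mother.

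Of the 9 genes, 6 were called higher in *Raf926* than in WT, 0 lower and 3 in neither direction. A gene was called where the edgeR adjusted p was under 0.1 and the fold change over 1.5. The 6 were *zld*, *smg*, *pum* and the 3 PNG kinase genes, with increases between 1.60-fold and 4.87-fold. The DESeq2 Wald test also called 0 of them lower, and *Trl* was the 1 gene with a lower level at an unadjusted edgeR p under 0.05. Over all genes tested, 22.7% were called higher, 26.9% lower and 49.7% in either direction, so about as many genes were called as were not in this comparison. All *Raf926* replicates lay on one side of all WT replicates for 8 of the 9 genes, and *Clamp* was the exception. The same held for 68.5% of all genes tested. Log2 fold changes had a median of 0.79 over the 9 genes and −0.04 over all genes tested. Scaling by library size alone moved the median of all genes to −0.24, and turned 2631 higher and 3116 lower calls over all genes into 1967 and 3833.

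**Figure D1:**
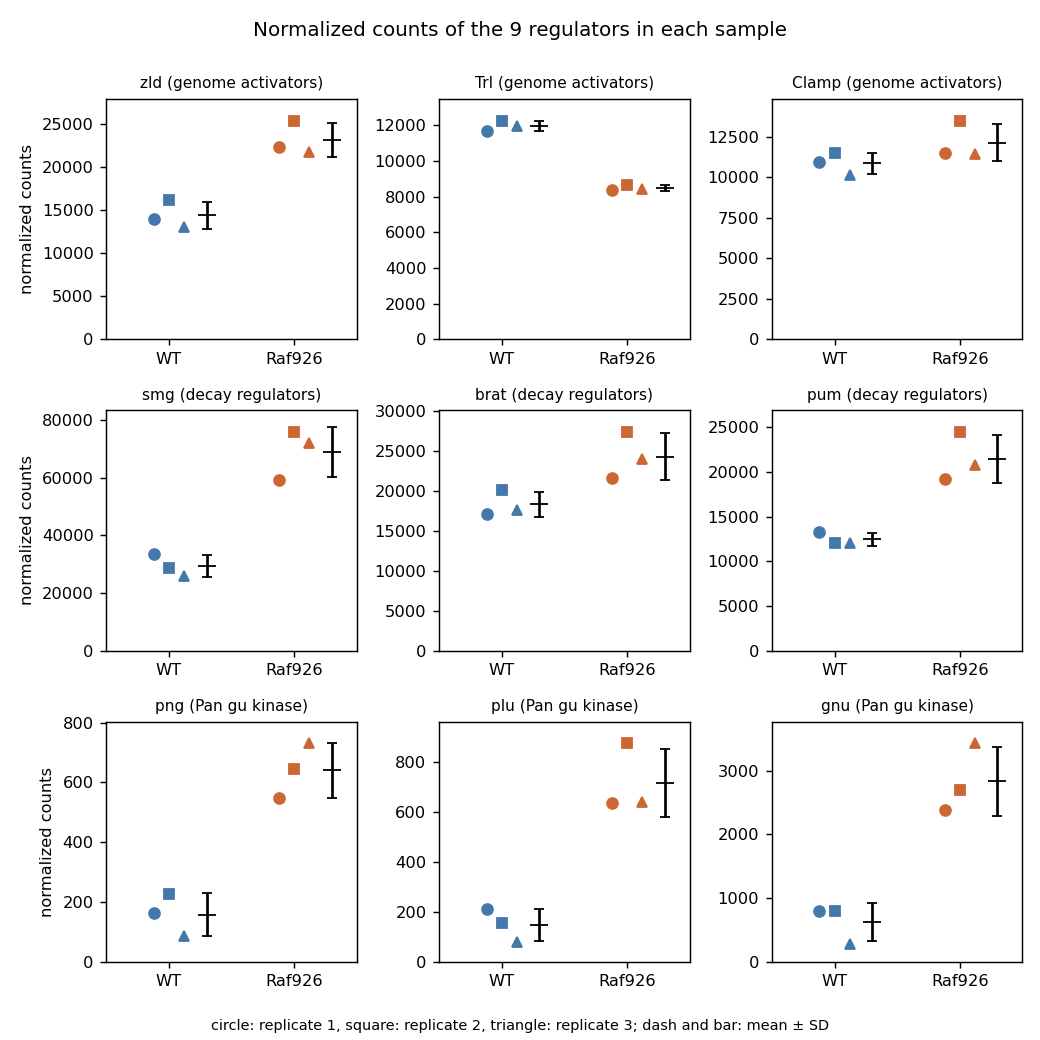
Normalized counts (vertical axis, from 0, scale differing by panel) of each of the 9 genes in the 3 WT (blue) and 3 Raf926 (orange) replicates, with the mean and SD beside each group. The PNG kinase genes show the widest gap between genotypes, and WT replicate 3 is the lowest WT sample in all 3. Trl is the gene that lies lower in all Raf926 replicates, and Clamp overlaps.

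The PNG kinase genes showed the largest differences of the 3 roles. Their means in *Raf926* were between 4.07 and 4.87 times those in WT, and for each of them the lowest *Raf926* replicate was above the highest WT replicate. *png* (FBgn0000826; X:1356488-1357601, minus strand, BDGP6.54) encodes the serine/threonine kinase subunit. It had 161.6, 226.9 and 85.0 normalized counts in WT and 546.8, 645.0 and 730.5 in *Raf926*, or 158 ± 71.0 and 641 ± 91.9 (SD, n = 3 each). The rise was 2.02 on the log2 scale (SE 0.35, adjusted p = 0.0019, edgeR).

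*plu* (FBgn0003114; 2R:20262958-20263684, minus strand) encodes a small ankyrin-repeat protein required for the kinase's activity. It had 209.0, 152.9 and 79.2 normalized counts in WT and 635.2, 872.6 and 638.0 in *Raf926*, or 147 ± 65.1 and 715 ± 136 (SD, n = 3). This was the largest change among the 9 genes, a log2 fold change of 2.28 (SE 0.35, adjusted p = 0.0011, edgeR), higher than that of 95.7% of all genes tested. *gnu* (FBgn0001120; 3L:14802380-14803360, minus strand) encodes the subunit whose binding activates the kinase. It was the most abundant of these genes, at 794.3, 803.4 and 274.2 normalized counts in WT and 2374, 2689 and 3427 in *Raf926*, or 624 ± 303 and 2830 ± 540 (SD, n = 3). Its log2 fold change was 2.18 (SE 0.38, adjusted p = 0.0021, edgeR).

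WT replicate 3 was the lowest sample for each PNG kinase gene, which gave WT coefficients of variation of 45.0% for *png*, 44.3% for *plu* and 48.5% for *gnu*, against 14.4%, 19.1% and 19.1% in *Raf926*. With that sample left out the genes remained called, and over the 6 fits that each left out 1 sample their log2 fold changes ranged from 1.74 to 2.35 for *png*, 1.99 to 2.62 for *plu* and 1.84 to 2.40 for *gnu*. The same WT sample had the smallest summed level of 23 genes listed as maternal transcripts cleared early (828 TPM, against 1042 and 1155 TPM in the other WT samples). It also had the largest summed level of 9 muscle markers (4930 TPM, against 3474 and 2484 TPM). The part of the samples' embryo ages in the PNG kinase values was not tested.

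The ratios among the PNG kinase genes were compared on TPM, which corrects for transcript length. The *png* to *plu* ratio was 0.33, 0.61 and 0.45 in WT and 0.36, 0.31 and 0.48 in *Raf926*. The genotypes overlapped for each of the 3 ratios, with log2 differences of −0.25 for *png* to *plu*, −0.20 for *png* to *gnu* and 0.05 for *plu* to *gnu* (exact two-sided permutation p = 0.6, 0.4 and 0.9 over 3 against 3 samples, adjusted over 9 ratios 0.77, 0.6 and 0.9). Their SDs within a genotype were between 0.09 and 0.44 on the log2 scale. The smallest p that 3 against 3 samples allow is 0.1, so this test could not give a p under 0.1 for a change of any size.

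Of the regulators of maternal mRNA, *smg* rose most. *smg* (FBgn0016070; 3L:8990317-8997989, minus strand) encodes the RNA-binding protein that recruits deadenylase to maternal mRNAs. Its normalized counts were 33387, 28818 and 25964 in WT and 59222, 75841 and 72029 in *Raf926*, or 29389 ± 3745 and 69031 ± 8706 (SD, n = 3). The lowest *Raf926* replicate was well above the highest WT replicate, and the increase was 2.35-fold (log2 fold change 1.23, SE 0.13, adjusted p = 0.00024, edgeR). This call held in all 18 alternative analyses of it.

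*pum* (FBgn0003165; 3R:9066343-9237682, minus strand) encodes a PUF-family repressor that acts on maternal mRNAs and, with Nanos, on *hunchback* mRNA in the posterior. It had 13230, 12058 and 12025 normalized counts in WT and 19166, 24435 and 20807 in *Raf926*, or 12437 ± 686 and 21469 ± 2697 (SD, n = 3). The 1.73-fold increase (log2 fold change 0.79, SE 0.11, adjusted p = 0.00079, edgeR) was larger than the spread between replicates. *brat* (FBgn0010300; 2L:19133816-19179758, plus strand) encodes an NHL-domain RNA-binding protein that acts with Pumilio and Nanos and later restrains growth of neural stem cells. Its normalized counts were 17113, 20103 and 17620 in WT and 21545, 27318 and 23911 in *Raf926*, or 18279 ± 1600 and 24258 ± 2903 (SD, n = 3). The genotypes did not overlap and the adjusted p was 0.017 (edgeR), but the 1.33-fold difference (log2 fold change 0.41, SE 0.12) was under the fold threshold, so *brat* was not called.

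The TPM ratio of *smg* to *brat* was 2.59, 1.89 and 2.01 in WT and 3.06, 3.02 and 3.31 in *Raf926*, and that of *smg* to *pum* was 3.60, 3.43 and 3.05 in WT and 4.43, 4.50 and 4.98 in *Raf926*. Both ratios were higher in every *Raf926* sample, by 0.54 and 0.47 on the log2 scale (exact permutation p = 0.1 each, the smallest that 3 against 3 samples allow, adjusted p = 0.18). For *brat* to *pum* the genotypes overlapped and the log2 difference was −0.08 (exact permutation p = 0.7, adjusted 0.79). TPM divides counts by the mean transcript length that RSEM estimated, which was 17.0% shorter for *brat* in *Raf926*. On normalized counts the log2 fold change was 0.41 for *brat* and 0.79 for *pum*, so the TPM ratios with *brat* depend on this length.

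The genome activators did not move together. *zld* (FBgn0259789; X:19766465-19783548, minus strand) encodes the zinc-finger pioneer factor of the early embryo. It had 13994, 16126 and 13073 normalized counts in WT and 22298, 25329 and 21689 in *Raf926*, or 14398 ± 1566 and 23105 ± 1950 (SD, n = 3). The increase was 1.60-fold (log2 fold change 0.68, SE 0.11, adjusted p = 0.0015, edgeR), close to the fold threshold of 1.5. With library size alone as the scale the log2 fold change was 0.49 with the adjusted p at 0.0035, and *zld* then was under the fold threshold.

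*Trl* (FBgn0013263; 3L:14747929-14761049, minus strand) encodes GAGA factor, which binds GA-rich DNA and keeps promoters open. Its normalized counts were 11676, 12237 and 11940 in WT and 8388, 8673 and 8410 in *Raf926*, or 11951 ± 281 and 8490 ± 159 (SD, n = 3). These were the tightest replicates of the 9 genes, and *Trl* stood at 71.0% of WT (log2 fold change −0.49, SE 0.079, adjusted p = 0.0014, edgeR). The fold change did not reach 1.5, so *Trl* was not called, although it was called lower with library size alone (log2 fold change −0.69) and with upper-quartile normalization (−0.65). On the same strand, *Trl*, with 6254 annotated exonic bases, shares exonic bases with *CG42507* and *Tsen34*, so RSEM had to divide reads among them. The overlaps with the 2 genes add up to 4865 bases, in which any base shared with both is counted for each. *CG42507* fell from 1766 ± 240 to 752 ± 88.4 normalized counts (SD, n = 3; log2 fold change −1.23, adjusted p = 0.00043, edgeR). With the counts of *Trl* and *CG42507* summed, the samples held 13178, 14208 and 13764 normalized counts in WT and 9140, 9513 and 9073 in *Raf926*, a log2 fold change of −0.57 (SE 0.082, adjusted p = 0.00082, edgeR), so the direction did not depend on how reads were split between this pair.

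*Clamp* (FBgn0032979; 2L:22165720-22169143, minus strand) encodes the zinc-finger protein that also binds GA repeats and brings the dosage compensation complex to the male X chromosome. It had 10929, 11475 and 10169 normalized counts in WT and 11498, 13468 and 11457 in *Raf926*, or 10858 ± 656 and 12141 ± 1150 (SD, n = 3). The genotypes overlapped, and the log2 fold change of 0.16 (SE 0.10, adjusted p = 0.20, edgeR) had a 95% interval from −0.04 to 0.36. With library size alone it was −0.04, so no direction can be given for *Clamp*. It shares 502 exonic bases with *CG42748* on the opposite strand (log2 fold change 0.46, adjusted p = 0.022, edgeR), and the counting was not stated to use strand.

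The balance of the activators differed between the genotypes in every replicate. The TPM ratio of *zld* to *Trl* was 0.39, 0.44 and 0.37 in WT and 0.80, 0.87 and 0.77 in *Raf926*. This is a 2.02-fold higher ratio, or 1.02 on the log2 scale (exact permutation p = 0.1, the smallest possible, adjusted p = 0.18). The log2 ratio of *zld* to *Clamp* was 0.52 higher and that of *Trl* to *Clamp* 0.49 lower in *Raf926*, again with no overlap (exact permutation p = 0.1 each, adjusted p = 0.18). A ratio within a sample does not depend on how the samples are scaled against each other, and shows unequal change of its members rather than which of them changed. It does depend on the estimated mean transcript lengths, and that of *Trl* was 9.5% shorter in *Raf926*.

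**Figure D2:**
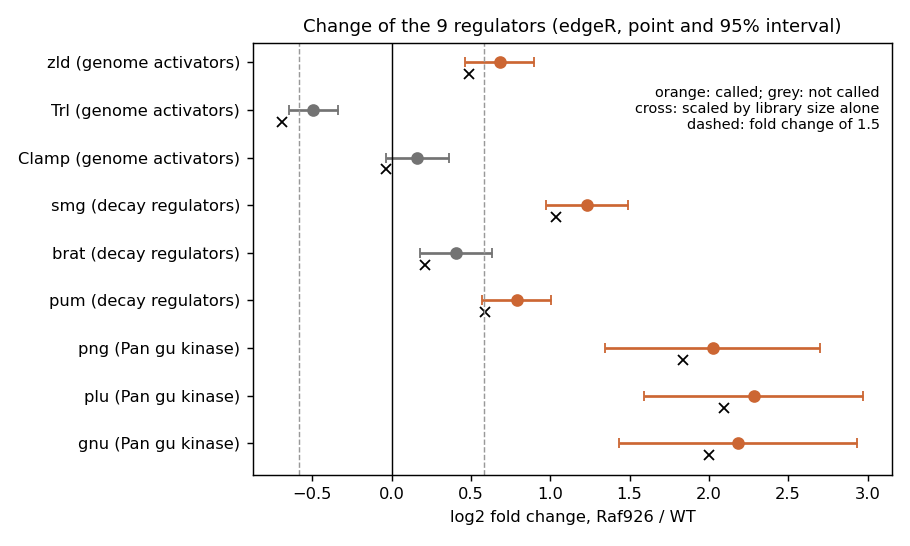
Log2 fold change of each gene in Raf926 relative to WT (horizontal axis), with bars of 1.96 standard errors derived from the edgeR F statistic. Crosses give the value with library size alone, and dashed lines mark a fold change of 1.5. The 3 PNG kinase genes lie between 2.02 and 2.28, smg at 1.23 and Trl at −0.49, and the crosses lie lower for every gene.

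Levels per length placed *smg* first in both genotypes. Its mean was 211 ± 22.2 TPM in WT and 411 ± 52.7 TPM in *Raf926* (SD, n = 3). In WT it was followed by *Trl* (162 TPM), *Clamp* (142 TPM), *brat* (98.2 TPM), *zld* (65.1 TPM), *pum* (62.7 TPM), *gnu* (29.4 TPM), *plu* (13.0 TPM) and *png* (5.79 TPM). Of these neighbours, *zld* and *pum*, *gnu* and *plu*, and *plu* and *png* overlapped between samples and cannot be ordered. In *Raf926* the order after *smg* was *Clamp* (132 TPM), *brat* (132 TPM), *gnu* (112 TPM), *Trl* (107 TPM), *pum* (88.7 TPM), *zld* (86.7 TPM), *plu* (52.7 TPM) and *png* (19.7 TPM). Overlaps were between *Clamp* and *brat*, *brat* and *gnu*, *gnu* and *Trl*, and *pum* and *zld*. *gnu* thus moved from the 65.3th to the 91.9th percentile of TPM among the tested genes, and lay among the activators in *Raf926* where it had been below all of them in WT.

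The deposited tables also give each gene's mean transcript length, weighted by the share that RSEM estimated for each annotated transcript. It changes where transcript usage changes. This measure was chosen after the values were seen. It could vary for 6 of the 9 genes, since *png*, *plu* and *gnu* have 1 annotated transcript each. For *brat* it was 6129, 6080 and 6282 bases in WT and 5172, 5058 and 5112 bases in *Raf926*. The mean fell by 1050 bases in *Raf926*, or by 17.0% (log2 difference −0.27, SE 0.016, adjusted p = 0.0027, limma). For *Trl* it was 2552, 2602 and 2647 bases in WT and 2379, 2337 and 2342 bases in *Raf926*. It fell by 248 bases, or by 9.5% (log2 difference −0.14, SE 0.016, adjusted p = 0.0094, limma). Neither gene overlapped between genotypes, and among 6225 genes *brat* was number 70 and *Trl* number 183 from the most shortened. Over these genes, 13.8% were called shorter and 10.7% longer.

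*brat* has 5 annotated transcripts, which end at 3 sites on 2L. The transcript of 4544 bases ends at 19171852, those of 4869 and 4963 bases at 19172567, and those of 6258 and 12088 bases at 19179758. The mean length was above 4963 bases in all 6 samples, so reads were assigned to the most distal end in both genotypes, with a smaller share or a shorter transcript in *Raf926*. Long 3′ UTR forms of many fly genes are known from neurons, and ELAV-family proteins promote them. In these samples *elav* fell from 12597 ± 722 to 1878 ± 380 normalized counts and its relative *fne* from 4242 ± 751 to 490 ± 128 (SD, n = 3; log2 fold changes −2.75 and −3.12, adjusted p = 2.3e-05 and 5.2e-05, edgeR). Their part in the shorter *brat* mean was not tested. *Trl* transcripts end at 4 sites, and the 3 that reach its most distal end share it with *CG42507*, so that its length also depends on the division of reads described above. The lengths of *zld*, *Clamp*, *smg* and *pum* differed by 0.19%, −0.18%, −0.05% and 1.03%, with adjusted p of 0.49, 0.28, 0.60 and 0.30 (limma).

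**Figure D3:**
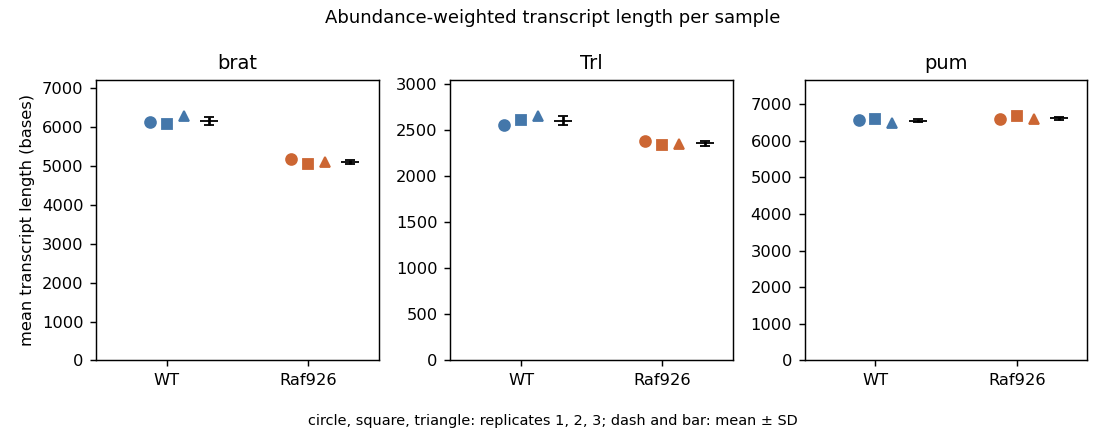
Mean transcript length in bases (vertical axis, from 0), weighted by each transcript's share, in the 3 WT (blue) and 3 Raf926 (orange) replicates for brat, Trl and pum, with mean and SD. brat falls from 6164 to 5114 bases and Trl from 2600 to 2353, while the pum genotypes overlap.

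Genes that work with the 9 regulators were followed through lists drawn up by function, with earlier results of these data known. Their counts of calls are to be read beside the 22.7% higher and 26.9% lower over all genes tested. Of 22 genes of maternal mRNA repression and deadenylation, 6 were higher and 2 lower, with a median log2 fold change of 0.18. The share higher was near that over all genes. The largest rises were in *aub* (1.34), a piRNA-binding Argonaute that also promotes maternal mRNA decay, and *cup* (1.32), the eIF4E-binding partner of Smaug. *Patr-1*, *tral*, *me31B* and *PAN2* rose by between 0.60 and 0.89. The *bel* helicase (−0.78) and the CCR4-NOT subunit *Not10* (−0.64) fell, and without WT replicate 2 or *Raf926* replicate 2 the number lower was 1. The catalytic deadenylase subunits *twin* and *Pop2* were not called. With library size alone the split of this list was 3 higher and 5 lower, with *me31B*, *tral* and *PAN2* no longer called, so that its balance has no fixed direction.

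Among 8 partners of Pumilio and Brat, 3 were higher and none lower (median 0.26; 1 was lower with no fold threshold in edgeR, and none with the DESeq2 Wald test). These were *bam* (2.20), *orb* (1.80) and *nanos* (1.58), each with germline functions, and *nanos* encodes the partner that Pumilio and Brat use on *hunchback*. Of 21 genes of egg activation and early mitosis, 8 were higher and 1 lower (median 0.51). *mtrm*, an inhibitor of Polo kinase in the oocyte, rose by 2.15 on the log2 scale and *Mos*, a meiotic kinase, by 1.70. *CycB*, the mitotic cyclin whose protein level depends on the PNG kinase, went from 48223 ± 6662 to 81046 ± 7155 normalized counts (SD, n = 3; log2 fold change 0.75, adjusted p = 0.0015, edgeR), and was not called with library size alone (0.56). *fzr*, an activator of the anaphase-promoting complex, fell by 0.85 on the log2 scale.

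Of 20 transcription and chromatin partners of the activators, 3 were higher and 4 lower (median 0.00, for all genes −0.04). Both are smaller shares than the 22.7% higher and 26.9% lower over all genes tested. *mof*, the acetyltransferase of the dosage compensation complex, rose by 0.97 and *nej*, the CBP acetyltransferase, by 0.79. Of the other subunits of that complex, which CLAMP recruits, *msl-2* fell from 1641, 1924 and 1590 normalized counts in WT to 379, 214 and 216 in *Raf926* (log2 fold change −2.67, adjusted p = 0.00014, edgeR), and *mle* fell by 0.90 on the log2 scale. *msl-1* (log2 fold change 0.35) and *msl-3* (−0.01) were not called. *opa*, a later pioneer factor, fell by 1.54 on the log2 scale and *Dsp1* by 1.07.

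The lists of maternal and of early zygotic transcripts moved in opposite directions on balance. Whether the 9 regulators act on the listed genes was not tested. Of 23 genes listed as maternal transcripts cleared in the early embryo, 16 were higher and none lower (edgeR, also none with no fold threshold or with the DESeq2 Wald test), with a median of 1.42. The list includes *tsl* (0.49, not called), which the study describes as expressed in follicle cells. The largest rises were in *exu* (2.71), needed to localize *bicoid* mRNA, and *mtrm* (2.15). This list shares 5 genes with that of egg activation and 3 with that of Pumilio and Brat partners, so the lists are not independent. Of 24 early zygotic genes, 1 was higher and 13 lower, with a median of −1.11. Their summed levels were 934, 864 and 726 TPM in WT and 620, 384 and 354 TPM in *Raf926*, so *Raf926* replicate 1 was the closest to WT. In that replicate *bnk* and *sc*, both called lower, lay within the WT range. So did *halo*, *Z600*, *Sxl*, *eve*, *hry* and *odd*, which were not called. Over the fits that each left out 1 sample, the number lower ranged from 10 to 15, and was 15 without *Raf926* replicate 1. *hkb*, a terminal gap gene under Torso and Raf signalling, was the lowest (925.8, 1116 and 753 normalized counts in WT and 16.3, 17.8 and 9.46 in *Raf926*; log2 fold change −5.99, adjusted p = 1.7e-05, edgeR), followed by *sog* (−3.51), a ventral ectoderm gene bound by Dorsal and Zelda. The part of Torso, Raf and Dorsal signalling in the fall of this list was not tested. *sisA*, an X-linked sex-determination gene and an early target of Zelda, was the one that rose (1.39), and the number higher was 2 without *Raf926* replicate 2 or replicate 3.

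**Figure D4:**
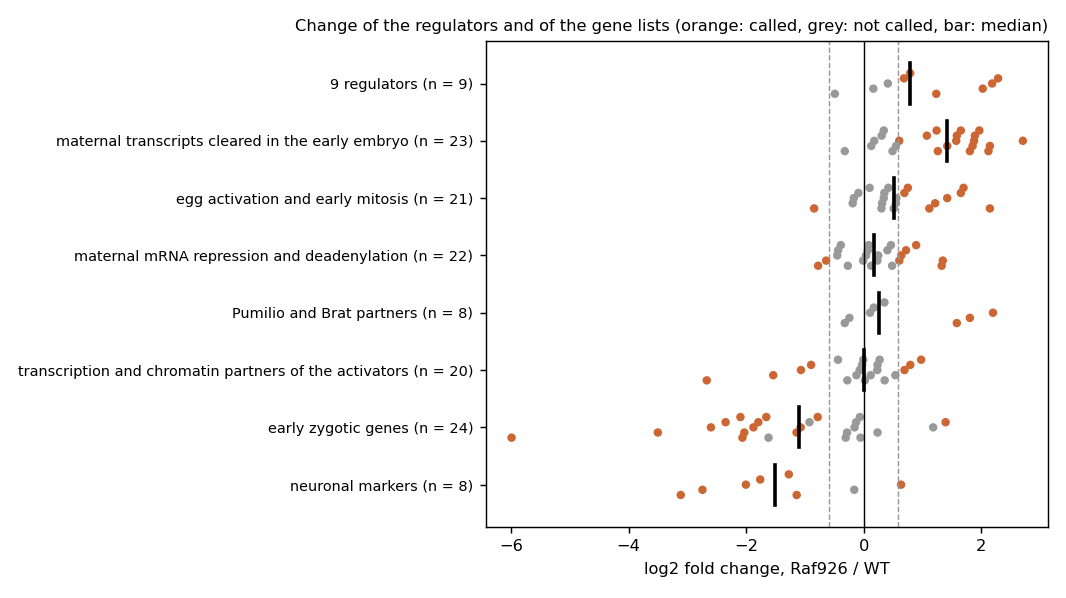
Log2 fold change in Raf926 relative to WT (horizontal axis) of the 9 regulators and of each tested gene in 7 gene lists, 1 point a gene, orange where called and grey where not, with a bar at the median and dashed lines at a fold change of 1.5. The medians are 0.79 for the regulators, 1.42 for the genes listed as cleared maternal transcripts, −1.11 for the early zygotic genes and −1.52 for the neuronal markers.

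Markers of late-differentiating cells differed between the genotypes as well. All 9 muscle markers were lower in *Raf926* (median −4.49; summed 2484 to 4930 TPM in WT and 9.77 to 335 TPM in *Raf926*, where replicate 2 was the highest). Of 8 neuronal markers, 6 were lower and 1 higher (median −1.52; 156 to 219 TPM in WT and 60.1 to 66.4 TPM in *Raf926*), the one higher being *Syx1A* (0.63), which was not called with library size alone. Summed levels of the genes listed as cleared maternal transcripts were 828 to 1155 TPM in WT and 1553 to 2000 TPM in *Raf926*. These lists moved with genotype in the same samples as the regulators, and the part of embryo age or cell makeup in the regulators' values was not tested.

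Markers of 3 further tissues were also examined. Of 14 follicle cell and eggshell genes only 2 passed the filter, *Fcp3C* (1.12) and *dec* (−1.95), with a summed level of 2.68 to 4.82 TPM in WT and 4.28 to 4.96 TPM in *Raf926*. *Cp16*, *Cp19* and *Cp36* had at most 3 counts in every sample. Of 9 testis and sperm genes 2 passed, *fzo* (3.06) and *bam* (2.20), summed levels were 5.08 to 7.80 TPM and 21.2 to 28.3 TPM, and *Mst84Da*, *Mst84Db*, *Mst98Ca*, *dj* and *djl* had at most 3 counts. Of 6 hemocyte genes 5 passed, *Hml* (0.71) and *crq* (0.64) higher and *NimC1* (−2.15), *Pxn* (−1.36) and *srp* (−0.98) lower, with summed levels of 69.3 to 80.7 TPM in WT and 53.5 to 58.2 TPM in *Raf926*. The call of *Fcp3C* was lost without WT replicate 1 or 2 or *Raf926* replicate 1 or 3, and the number of hemocyte genes higher was 1 without any 1 WT replicate or *Raf926* replicate 2 or 3. With library size alone, upper-quartile scaling, glmTreat or limma on either TPM scale, 0 hemocyte genes were called higher.

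For 1 gene of each role, the genes with the most similar profile over the 6 samples were found by the Euclidean distance between centred log2 normalized counts. The nearest to *smg* were *cana* (distance 0.06), a CENP-E-like kinesin, *bcd* (0.09), the maternal anterior determinant, and *TTLL5* (0.10). *bcd* was at 2131 ± 354 normalized counts in WT and 5026 ± 674 in *Raf926* (SD, n = 3). Nearest to *gnu* were *mtrm* (0.15), *Hsp27* (0.36) and *trk* (0.38), which encodes the precursor of the Torso ligand, and *mtrm* repeated the low value of WT replicate 3 (997.4, 1104 and 362.5 normalized counts in WT; 3068, 3635 and 4180 in *Raf926*). Nearest to *zld* were *SIDL* (0.10), *CG5439* (0.11) and *ash2* (0.12), the last a subunit of histone methyltransferase complexes. Such profiles are shared by many genes, since Pearson's r over the 6 samples was over 0.95 with 820 genes for *zld*, 1364 for *smg* and 878 for *gnu*, and these samples share the genotype difference.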

How the data were processed

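RNA-seq (paired-end reads) was measured in 3 WT and 3 *Raf926* samples. The authors aligned the reads with STAR 2.7.1a to the dm6 genome (BDGP6.22) and estimated counts for each gene with RSEM 1.3.1. The deposited expected counts are not normalized. Of these, 11.5% are not whole, and all were rounded. The authors' tables also give TPM, used for levels per length and ratios, the deposited transcript length, used for transcript usage, and FPKM, which the authors deposited and which was not used. Gene names and coordinates came from BDGP6.54, which matched 17587 of 17714 identifiers; it is later than the authors' annotation.

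After removal of 390 rRNA, snoRNA and snRNA genes and of genes with a mean under 10 counts, 11568 genes were tested with edgeR 4.0.16 (R 4.3.3; TMM, quasi-likelihood test, Benjamini-Hochberg over all genes). Genes were called at adjusted p under 0.1 and fold change over 1.5. The standard errors given with edgeR values were derived as the absolute log2 fold change divided by the square root of the quasi-likelihood F statistic. Intervals are the log2 fold change ± 1.96 of these standard errors. This normal approximation is narrower than the few samples warrant for 95% coverage. Lengths were compared with limma 3.58.1 on the log2 scale over 6225 genes whose length varied, and called at adjusted p under 0.1. Ratios of TPM were compared by exact two-sided permutation (scipy 1.17.1; smallest p 0.1). The edgeR and length fits were also run on simulated data with 200 changed genes each. That is far fewer than were called here, so the simulations do not bear on scaling when many genes change. Figures were drawn with matplotlib 3.10.9.

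Totals of 33275401 to 38120428 counts put 3 counts at 0.0787 to 0.0902 CPM. Reads had no molecular identifiers, so this covers counting error only. Replicates of a genotype differed by more than sampling noise. Counting was not stated to use strand.

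The 9 genes and the gene lists were chosen with earlier results of these data known. Named genes are the 9, from each list the 2 called genes with the largest rise and the 2 with the largest fall, markers the text relies on, and the 3 nearest to *zld*, *smg* and *gnu*. Others were named after their values were seen: *Patr-1*, *tral*, *me31B*, *PAN2*, *twin*, *Pop2*, *CycB*, *Dsp1*, *mle*, *tsl*, *bnk*, *sc*, *halo*, *Z600*, *Sxl*, *eve*, *hry*, *odd*, *bam* as a shared gene, and the genes overlapping a member. Alternatives were DESeq2's size factors and Wald test (DESeq2 1.42.0), library size alone, upper-quartile scaling, no filter, filterByExpr, a replicate block, glmTreat, limma on log2(TPM + 1) and log2(TPM + 0.1), an adjusted p of 0.05, no fold threshold and each sample left out. The summed *Trl* and *CG42507* counts and all length analyses were added after the data were seen.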

Additional observations from a re-analysis of the deposited data

How the results depend on the processing

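The rises of *smg*, *png*, *plu* and *gnu* were called in all 18 alternatives. Leaving out each sample in turn left every call of the 9 genes as it was. *zld* was not called with library size alone (log2 fold change 0.49), upper-quartile scaling (0.53), limma on log2(TPM + 1) (0.40) or log2(TPM + 0.1) (0.41), or glmTreat (0.68, adjusted p = 0.18), and *pum* not with limma on either TPM scale (0.49 and 0.49). *Trl* was called lower, as 1 gene against 0, with library size alone (−0.69), upper-quartile scaling (−0.65), limma on both TPM scales (−0.60 and −0.60) and no fold threshold (−0.49), which by construction also called *brat* (0.41). *Clamp* changed sign with library size alone (−0.035) and limma on both TPM scales (−0.11 and −0.11) and was not called in any alternative. Library size alone lowers every log2 value by a like amount, as the median of all genes shows; the cause of the other differences was not tested. Over all genes, limma on log2(TPM + 1) called 1583 higher against 2631.

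Same-numbered replicates did not deviate together (correlations −0.03, −0.20 and −0.16), so the numbers do not pair the samples; the replicate block gave 0.68 for *zld*, 1.23 for *smg* and 2.29 for *gnu*, changed no call of the 9 genes and called 2536 genes higher and 2957 lower. Of the alternative values of the ratios, 69 kept their direction and 3 did not, in ratios whose genotypes overlapped. With single samples left out, the log2 difference ranged from −0.16 to 0.029 for *brat* to *pum*, above 0 without WT replicate 2, and from −0.13 to 0.27 for *plu* to *gnu*, below 0 without WT replicate 2 (−0.12) or *Raf926* replicate 2. The 42 alternative values of the lengths kept direction and call. Of the counts of calls in lists, 49 moved by over 1.5 times or to or from 0, and 347 did not. For mRNA repression and deadenylation, 3 were higher with library size, upper-quartile scaling, glmTreat and limma, and 10 without a fold threshold; those lower were 5 with library size and limma, 4 with upper-quartile scaling, 1 with glmTreat and 6 without a fold threshold. Without a fold threshold, 13 egg activation genes and 6 activator partners were higher and 1 Pumilio or Brat partner lower. Of early zygotic genes, 2 were higher with the DESeq2 Wald test or the replicate block. *Syx1A*, *Hml* and *crq* were not called under library size, upper-quartile scaling, glmTreat or limma. By Pearson's r in place of distance, 1 of the 9 nearest genes was shared (*mtrm* with *gnu*). The planned comparison of genes with and without binding motifs was not run, because it needs sequences that were not used here. Depth was not the limit for any of the 9 genes, the lowest of which had 95 counts in a sample.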
